A study of Mus musculus with 6 samples.

Results

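Homeostatic microglia genes mark the resting state of microglia, the resident macrophages of the retina and brain. The 9 genes described here, Cx3cr1, P2ry12, Tmem119, Csf1r, Sall1, Siglech, Ctss, Aif1 and Fcrls, were chosen by name and found by gene symbol among the 55573 genes of the count table. They were followed singly and summed in 6 RNA libraries of mouse cells sorted as retinal ganglion cells (RGCs), which send the output of the retina to the brain. The 3 libraries labelled Myh9/10 dKO came from C57BL/6 mice with double-floxed Myh9 and Myh10 that had received AAV2-Cre in the eye 2 weeks before sacrifice. The 3 libraries labelled WT came from C57BL/6 mice with the same double-floxed alleles that had received AAV2-GFP, also 2 weeks before. All 6 libraries therefore carried the floxed alleles and an AAV2 vector, and each library pooled 3 retinas from 3 mice. The labels give no age, no promoter for Cre or GFP and no marker for the sort.

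Resting microglia survey the tissue with fine, moving processes. Signals from neighbouring cells hold them in that state: fractalkine from neurons acts on CX3CR1, CSF1 and IL-34 act on CSF1R and keep the cells alive, and TGF-β sustains the transcription factors of the resting programme. When microglia meet damaged cells, genes such as P2ry12, Tmem119 and Cx3cr1 are typically lowered while phagocytic and lysosomal genes are raised. In the retina, microglia sit in the synaptic layers and close to the RGC bodies.

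Library totals were 4569880 to 5634316 counts in dKO and 4730540 to 6146226 counts in WT. A single ribosomal RNA row, CT010467.1, took 64.2% to 91.2% of the dKO totals and 90.2% to 92.8% of the WT totals. Counts outside that row were 453327 to 1636581 in dKO and 346037 to 499313 in WT. The library labelled dKO replicate 3 stood apart with the 1636581 counts and the 64.2% share, so values without it are given where they differ. The targeted genes did not pass the test: Myh9 was at 62.7 ± 4.13 CPM (TMM-normalised counts per 1e6) in dKO and 64.2 ± 3.91 CPM in WT, and Myh10 at 17.996 ± 3.39 CPM in dKO and 18.7 ± 2.08 CPM in WT (SD, n = 3 each). Reads from exons outside the floxed part also count towards these 2 genes, so they do not check the deletion.

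The sequence before the starts of the genes was read first. PU.1, encoded by Spi1, is the transcription factor on which the microglial lineage depends, and it binds purine-rich letters around a GGAA core. The 250 bases before each RefSeq start (build GRCm38.p6) were searched on both strands for GGAAGT and for AGGAAGT, which contains the first motif. Starts were found for 7 of the 9 genes, without Tmem119 and Csf1r. GGAAGT was present for 4 of these 7 genes and for 22.2% of all 27025 genes with a start, and AGGAAGT for 3 of the 7 and for 8.80% of all. The 30 bases around each match are shown because they are the only places where the searched letters occur, with the match in capitals and each sequence read 5′ to 3′ on its gene's strand.
P2ry12 (chr3:59263019-59263048, minus strand): agctaacaagaAGGAAGTtccccagtgaca
Fcrls (chr3:87263581-87263610, minus strand): acaactttgccACTTCCTttttttcctatt
Sall1 (chr8:89043025-89043054, minus strand): gcgcgggagttAGGAAGTtcgccgctcgcc
Siglech (chr7:55768016-55768045, plus strand): tgtgcaacaagcACTTCCcagtctgagcca
P2ry12 and Sall1 hold the motif on the gene's own strand, whereas Fcrls and Siglech hold its reverse complement. In P2ry12 the match lies 52 to 46 bases before the start, and in Fcrls 75 to 69 bases before it. For Sall1 it lies 181 to 175 bases before 1 of its 3 starts, and for Siglech 156 to 151 bases before the start. The windows of Ctss, Aif1 and Cx3cr1 and the other Sall1 windows held no match. Annotated exons of any gene covered all 250 bases for P2ry12 and Cx3cr1, 136 for Fcrls, 16 for Aif1 and 6 for Siglech. The Fcrls match and the Cx3cr1 window lie inside the annotated spans of these genes given below. Such windows are therefore not purely upstream sequence. A match of letters is a description and no evidence of binding.

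Of the 9 genes, 8 were abundant enough to test and none was called higher or lower in dKO (quasi-likelihood test of edgeR, p adjusted by Benjamini-Hochberg, threshold 0.05), where 1.92% of the 8444 genes tested were called. At an unadjusted p under 0.05 the count was also 0 (1, Tmem119, without WT replicate 3), against 12.5% of all genes tested, and DESeq2 and limma-voom each called 0 of the 8, where they called 0.616% and 1.94% of all genes tested. The dKO and WT values overlapped for each of the 9 genes, while they did not overlap for 17.0% of all genes tested. Of the 8 log2 fold changes 3 were positive and 5 negative, with a median of -0.10, against -0.00072 over all genes tested. In a bulk library, fewer cells of a type and less RNA per cell cannot be told apart, so an equal level shows neither equal numbers of microglia nor an equal state.

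**Figure D1:**
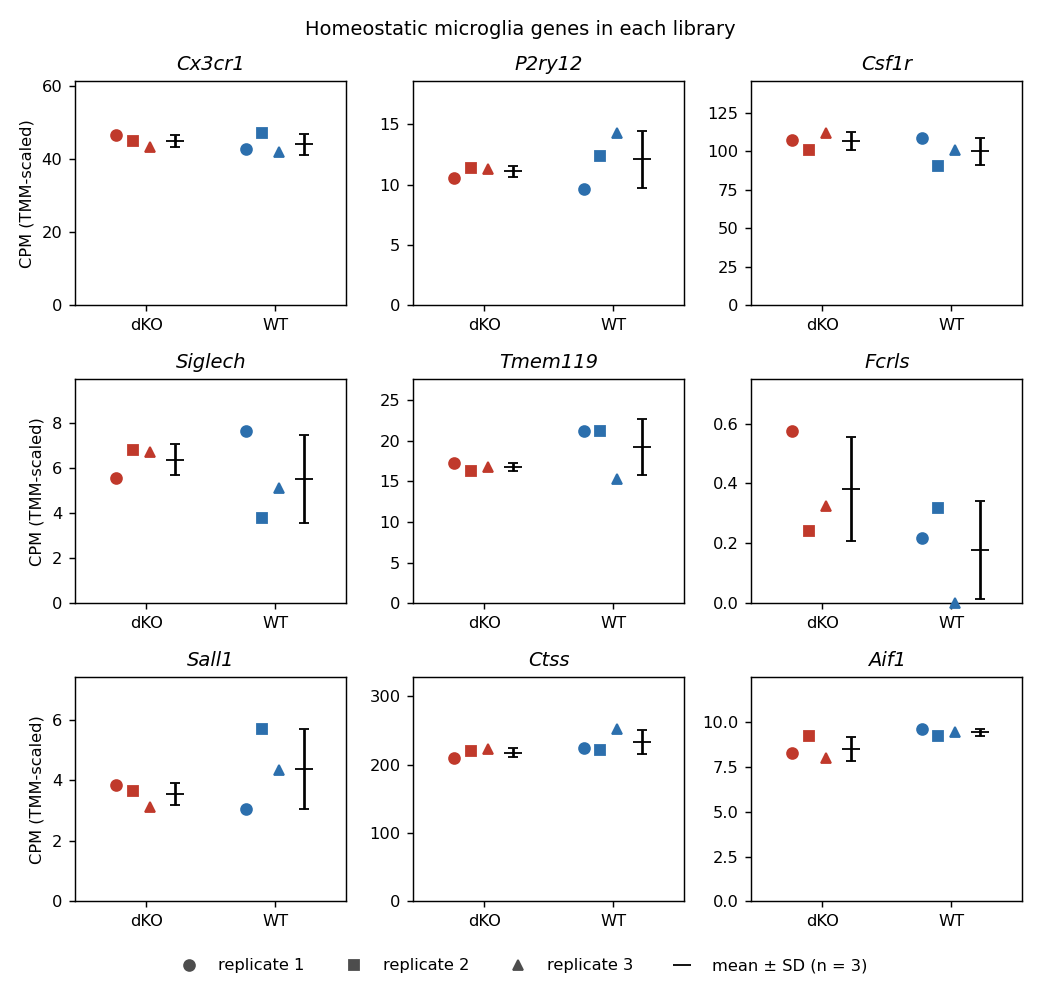
TMM-scaled CPM (vertical axes, starting at 0) of the 9 homeostatic microglia genes in the 3 dKO libraries (red) and the 3 WT libraries (blue), with the mean and SD in black. The dKO and WT points overlap in all 9 panels, and WT points spread more widely for Tmem119, P2ry12, Siglech and Sall1.

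The surface receptors that read signals from neurons and other cells come first. Cx3cr1 (ENSMUSG00000052336, chromosome 9, 119901616 to 120069879, minus strand, GRCm38) encodes the receptor for fractalkine. It had 243, 185 and 664 counts in dKO replicates 1 to 3 and 196, 149 and 165 counts in WT replicates 1 to 3. Scaled, these were 46.6, 44.9 and 43.4 CPM in dKO and 42.8, 47.2 and 42.1 CPM in WT. The dKO values lay inside the WT range, and the highest of all 6 values was only 1.12 times the lowest. The log2 fold change was 0.028 ± 0.101 (SE; edgeR adjusted p = 0.946), with a 95% interval of 0.887 to 1.17 on the fold scale.

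P2ry12 (ENSMUSG00000036353, chromosome 3, 59216272 to 59262871, minus strand) encodes the ADP receptor that steers microglial processes towards injury. It had 55, 47 and 173 counts in dKO and 44, 39 and 56 counts in WT. These were 10.6, 11.4 and 11.3 CPM in dKO and 9.61, 12.4 and 14.3 CPM in WT. The dKO values lay close together inside the WT range, whose ends were replicates 1 and 3. This was a log2 fold change of -0.10 ± 0.16 (SE; edgeR adjusted p = 0.856; 95% interval of the fold 0.745 to 1.17).

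Csf1r (ENSMUSG00000024621, chromosome 18, 61100598 to 61132149, plus strand) encodes the receptor for CSF1 and IL-34 that microglia need to survive. It had 559, 415 and 1715 counts in dKO and 496, 286 and 396 counts in WT, or 107, 101 and 112 CPM in dKO and 108, 90.6 and 101 CPM in WT. Only WT replicate 2 lay below all dKO values. The log2 fold change was 0.094 ± 0.095 (SE; edgeR adjusted p = 0.758; 95% interval of the fold 0.936 to 1.216). In the annotation, 873 of the 5774 exon bases of Csf1r (15.1%) are shared with Hmgxb3 on the opposite strand. Hmgxb3 had 31, 38 and 118 counts in dKO and 32, 20 and 25 counts in WT, and without a stated strand setting such reads cannot be told apart. For Cx3cr1 the shared exon bases were 78 (1.73%), with Gm33858, and for P2ry12 they were 9 (0.353%), with Med12l; the other 6 genes shared none.

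Siglech (ENSMUSG00000051504, chromosome 7, 55768178 to 55778925, plus strand) encodes a sialic-acid-binding receptor that plasmacytoid dendritic cells also carry. Its 29, 28 and 103 counts in dKO and 35, 12 and 20 counts in WT gave 5.57, 6.79 and 6.73 CPM in dKO and 7.65, 3.802 and 5.10 CPM in WT. The 2 extreme values of all 6 were both WT libraries. Its log2 fold change was 0.17 ± 0.22 (SE; edgeR adjusted p = 0.819; 95% interval of the fold 0.827 to 1.54).

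Tmem119 (ENSMUSG00000054675, chromosome 5, 113793729 to 113800516, minus strand) encodes a membrane protein used to tell microglia from other macrophages. It had 90, 67 and 256 counts in dKO and 97, 67 and 60 counts in WT, or 17.3, 16.3 and 16.7 CPM in dKO and 21.2, 21.2 and 15.3 CPM in WT. The dKO libraries lay within about 1 CPM of each other, between 2 higher WT libraries and the lower WT replicate 3. The log2 fold change was -0.20 ± 0.13 (SE; edgeR adjusted p = 0.589; 95% interval of the fold 0.726 to 1.05), the smallest adjusted p of the 8.

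Fcrls (ENSMUSG00000015852, chromosome 3, 87250758 to 87263738, minus strand), an Fc receptor-like scavenger gene of mouse microglia, was too sparse to test. It had 3, 1 and 5 counts in dKO and 1, 1 and 0 counts in WT. The summed counts, 9 in dKO and 2 in WT, gave a depth-scaled ratio of 2.13 with a 95% exact binomial interval of 0.440 to 20.2, which covers counting error only. A difference in Fcrls was not detectable at this depth.

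Inside the cell, Sall1 (ENSMUSG00000031665, chromosome 8, 89027235 to 89044162, minus strand) encodes the transcription factor that sets microglia apart from other macrophages. It had 20, 15 and 48 counts in dKO and 14, 18 and 17 counts in WT. These were 3.84, 3.64 and 3.13 CPM in dKO and 3.06, 5.70 and 4.34 CPM in WT. WT replicate 1 was below and the other WT libraries above all dKO values. Sall1 thus had a log2 fold change of -0.31 ± 0.28 (SE; edgeR adjusted p = 0.731), and the 95% interval of the fold, 0.545 to 1.19, was wide at these counts.

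Ctss (ENSMUSG00000038642, chromosome 3, 95526786 to 95556403, plus strand) encodes cathepsin S, a lysosomal protease that also cleaves fractalkine and the invariant chain of MHC class II. It had 1095, 906 and 3419 counts in dKO and 1029, 701 and 991 counts in WT, the highest counts of the 9 genes. Scaled, these were 210, 220 and 223 CPM in dKO and 225, 222 and 253 CPM in WT. WT replicate 3 stood above the other 5 libraries. The log2 fold change was -0.099 ± 0.098 (SE; edgeR adjusted p = 0.754; 95% interval of the fold 0.816 to 1.07).

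Aif1 (ENSMUSG00000024397, chromosome 17, 35170991 to 35176068, minus strand) encodes IBA1, an actin-binding protein used to stain microglia. It had 43, 38 and 122 counts in dKO and 44, 29 and 37 counts in WT, or 8.25, 9.22 and 7.97 CPM in dKO and 9.61, 9.19 and 9.44 CPM in WT. Only dKO replicate 2 reached the WT range. Aif1 had a log2 fold change of -0.19 ± 0.18 (SE; edgeR adjusted p = 0.746; 95% interval of the fold 0.685 to 1.13).

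**Figure D2:**
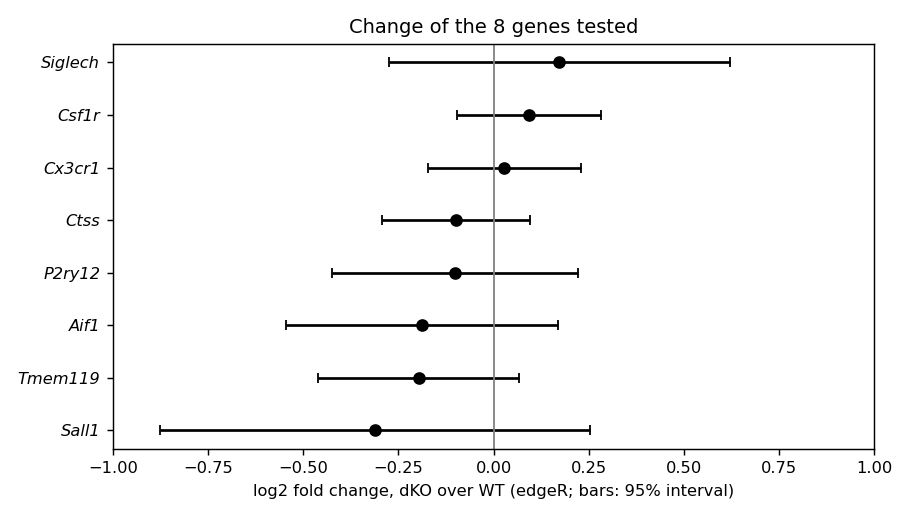
Log2 fold change of dKO over WT (horizontal axis) for the 8 homeostatic microglia genes tested, with 95% intervals from the edgeR fit. Each interval includes 0; it is narrowest for Csf1r and widest for Sall1.

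The intervals differ with depth. For Ctss, Csf1r and Cx3cr1, each with at least 149 counts in every library, they leave room for a fall of dKO to 0.816 of WT at most and for a rise to 1.216 of WT at most. For Sall1, with 14 to 48 counts a library, they leave room for a fall to 0.545, and for Siglech, with 12 to 103 counts, for a rise to 1.54. The intervals, rather than the p, therefore bound the change more tightly for the abundant genes than for the sparse ones. They rest on 3 libraries a group, whose spread could be technical only, and take the scaling factors as given.

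Relative to its mean, the level varied less among dKO than among WT libraries for 7 of the 8 genes, all but Aif1. The coefficient of variation was 3.04% in dKO and 17.7% in WT for Tmem119, and 4.17% in dKO and 19.4% in WT for P2ry12. Over the 8 genes its median was 4.74% in dKO and 13.3% in WT. Over all genes tested it was 14.1% in dKO and 17.5% in WT, and it was lower in dKO for 60.6% of them. The coefficient of variation includes counting noise. Differences beyond counting noise were measured over many genes as chi-square per degree of freedom. This was 1.86, 2.29 and 4.19 for pairs of dKO libraries and 1.16, 1.48 and 1.36 for pairs of WT libraries. By that measure the dKO libraries were not the closer ones. Depth was highest in dKO replicate 3. The parts of depth and of counting noise in the spread of the 8 genes were not tested.

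Levels of different genes were compared per exon length, as TPM (length-scaled transcript abundance, summed over genes outside the ribosomal RNA row). Ctss led with a mean of 3343 ± 309 TPM in dKO and 3777 ± 179 TPM in WT (SD, n = 3 each). Csf1r followed with 385 ± 38.0 TPM in dKO and 381 ± 32.4 TPM in WT, then Cx3cr1 with 207 ± 5.39 TPM in dKO and 215 ± 18.2 TPM in WT. Tmem119 was at 151 ± 7.91 TPM in dKO and 184 ± 36.4 TPM in WT, and Aif1 at 115 ± 10.2 TPM in dKO and 135 ± 3.71 TPM in WT. P2ry12 was at 90.8 ± 8.88 TPM in dKO and 104 ± 18.6 TPM in WT. The lowest levels were those of Siglech (39.3 ± 6.32 TPM in dKO and 35.9 ± 12.8 TPM in WT), Sall1 (13.9 ± 0.672 TPM in dKO and 18.3 ± 5.75 TPM in WT) and Fcrls (3.36 ± 1.34 TPM in dKO and 1.71 ± 1.56 TPM in WT). Over the 6 libraries the ranges of neighbours in this order overlapped for Cx3cr1 with Tmem119 and for Aif1 with P2ry12, and did not overlap for the other neighbours. Within single libraries, Cx3cr1 was above Tmem119 and Aif1 above P2ry12 in 6 of 6, by margins that varied.

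Summed, the 9 genes held 2137, 1702 and 6505 counts in dKO and 1956, 1302 and 1742 counts in WT. As shares of the counts outside the ribosomal RNA row these were 0.371%, 0.375% and 0.397% in dKO and 0.392%, 0.376% and 0.395% in WT. The means were 0.381% ± 0.0142 in dKO and 0.388% ± 0.00998 in WT (SD, n = 3 each), a ratio of 0.984, and the groups overlapped. Without dKO replicate 3 the ratio was 0.963. Ctss made up 52.3% ± 1.01 of the sum in dKO and 54.4% ± 2.20 in WT, and Csf1r 25.6% ± 1.09 in dKO and 23.4% ± 1.78 in WT (SD, n = 3 each), so the sum largely follows these genes. Without Ctss the difference between the mean shares of dKO and WT changed sign, to 0.00515 percentage points.

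The genes outside the lists whose course over the 6 libraries came nearest to the sum included Glg1, Mlec, Purb and Itm2b. The candidates were the 788 genes averaging 20 CPM or more, ranked by the root mean square difference of centred log2 CPM. That difference was 0.035 to 0.042 for these 4 genes, against a median of 0.137 over the 788. Their log2 fold changes were -0.052 to -0.031. Both these genes and the sum were nearly level, so the likeness is one of flat courses.

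Other genes of microglia gave the same count. Of 30 further microglia genes, 27 were tested and none was called, where 0.734% of all genes tested were called higher and 1.18% lower. At an unadjusted p under 0.05, 2 were higher and 2 lower, against 5.66% and 6.88% of all genes tested. DESeq2 and limma-voom called 0 of these genes. Their median log2 fold change was 0.039. The complement gene C1qa had a log2 fold change of 0.11 ± 0.095 (SE; edgeR adjusted p = 0.702). The smallest adjusted p belonged to Trem2, the lipid-sensing receptor of the phagocytic response, at 14.4 ± 1.18 CPM in dKO and 9.61 ± 0.970 CPM in WT (SD, n = 3 each; edgeR adjusted p = 0.0513). Adgre1, which encodes F4/80, was at 22.7 ± 1.01 CPM in dKO and 17.3 ± 0.458 CPM in WT (edgeR adjusted p = 0.0881). For both genes the dKO values lay above the WT values, as for 8.66% of all genes tested. Both were named for having the 2 smallest p of the list, so this separation adds no support. With upper-quartile scaling Trem2 was called (adjusted p = 0.0357; 0.0357 to 0.559 over its alternatives).

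Of 12 transcription factors of microglia, 10 were tested and none was called. At an unadjusted p under 0.05 there was 1 higher and there were 5 lower, against 5.66% and 6.88% of all genes tested, and the median log2 fold change was -0.23. The 5 lower became 2 with DESeq2, 2 of 11 tested without dKO replicate 1 or WT replicate 3, and 3 without dKO replicate 3 or WT replicate 1. DESeq2 and limma-voom called 0. Spi1, which encodes PU.1, had a log2 fold change of 0.13 ± 0.25 (SE; edgeR adjusted p = 0.887) and Irf8, its partner in microglia, -0.11 ± 0.13 (0.801). Cebpa, a myeloid factor, was at 9.77 ± 1.95 CPM in dKO and 6.44 ± 0.665 CPM in WT (SD, n = 3 each; edgeR adjusted p = 0.0554). Mef2a was at 12.6 ± 2.37 CPM in dKO and 16.5 ± 1.497 CPM in WT (0.155). Cebpa was called with upper-quartile scaling (adjusted p = 0.0410) and without dKO replicate 2 (0.0197; 0.0197 to 0.764 over its alternatives). The dKO values lay below the WT values for 4 of the 10, among them Mef2c, Ikzf1 and Runx1, and above them for Cebpa, whereas 8.31% of all genes tested lay below and 8.66% above. Mef2c, Ikzf1 and Runx1 were named after their values were seen.

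Of 20 genes for ligands and for CSF1 and TGF-β signalling, 16 were tested and none was called, with a median log2 fold change of -0.076. At an unadjusted p under 0.05, 1 was higher and 1 lower, against 5.66% and 6.88% of all genes tested. DESeq2 and limma-voom called 0 of the 16. The ligands themselves were sparse. Cx3cl1, which encodes fractalkine, had 5 to 24 counts a library in dKO and 5 to 7 in WT, and Il34 had 2 to 18 counts in dKO and 2 to 5 in WT. Neither gene was tested, and these raw counts are not scaled for the greater depth of dKO replicate 3. Csf1, the other CSF1R ligand, had a log2 fold change of -0.48 ± 0.24 (SE; edgeR adjusted p = 0.401). Sirpa, the receptor for the restraining signal CD47, was at 53.9 ± 3.42 CPM in dKO and 44.9 ± 3.67 CPM in WT (edgeR adjusted p = 0.263). Tgfbr1, a TGF-β receptor chain, was at 29.04 ± 3.49 CPM in dKO and 34.9 ± 4.47 CPM in WT (0.317).

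Genes of activated microglia and macrophages took a larger share in dKO. Of 18 such genes, 13 were tested, 3 were called higher and none lower, where 0.734% of all genes tested were called higher and 1.18% lower. The median log2 fold change was 0.32, with 9 positive and 4 negative. The list was written with earlier results of these data known. Lyz2, lysozyme of myeloid cells, was at 82.1, 90.0 and 86.2 CPM in dKO and 61.0, 55.4 and 65.5 CPM in WT (log2 fold change 0.50 ± 0.097, SE; edgeR adjusted p = 0.000392). Spp1, osteopontin, was at 6.33, 6.55 and 6.47 CPM in dKO and 2.62, 1.58 and 2.30 CPM in WT (1.52 ± 0.28; 0.000147). All dKO values of both genes lay above all WT values, as for 8.66% of all genes tested. Both were named because they were called, so this separation adds no support. Lyz2 has a near-identical copy, Lyz1, with which it can share reads, and RGCs of the alpha type also express Spp1.

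Gpnmb, a lysosomal membrane glycoprotein of lipid-laden macrophages, was at 6.91, 7.04 and 5.94 CPM in dKO and 2.84, 3.49 and 3.83 CPM in WT (log2 fold change 0.93 ± 0.25, SE; edgeR adjusted p = 0.0294). Its call was lost with DESeq2 (adjusted p = 0.381) and limma-voom (0.0704). It was also lost without dKO replicate 1 (0.0610), dKO replicate 2 (0.0525), WT replicate 1 (0.248) or WT replicate 2 (0.0705). With library-total scaling, which shifts all genes, none of the 3 was called (adjusted p = 0.301 each).

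**Figure D3:**
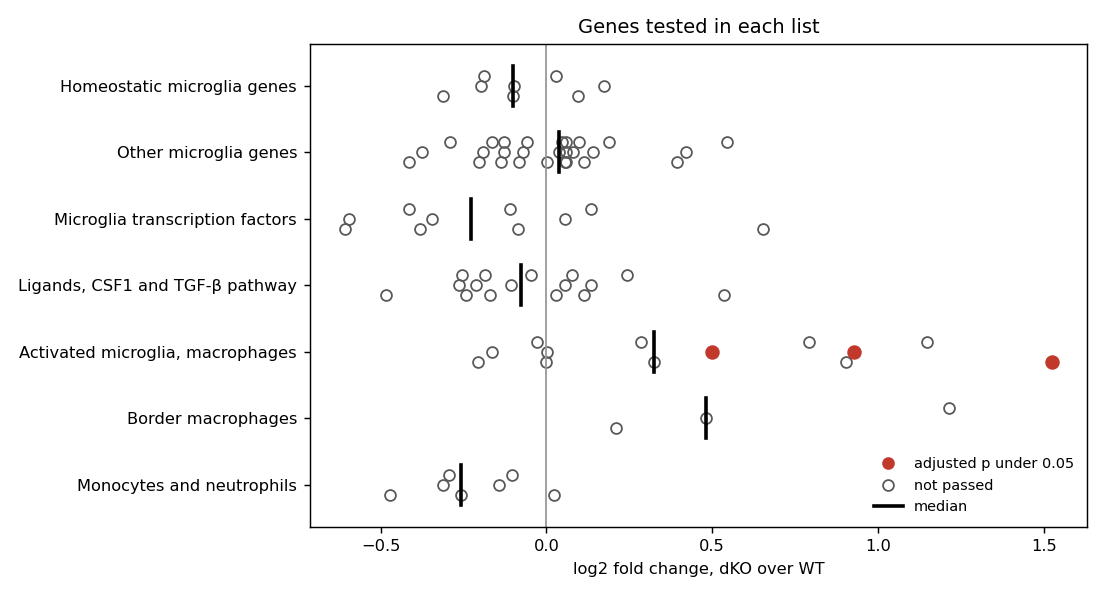
Log2 fold change of dKO over WT (horizontal axis) for every gene tested in each of 7 lists, with called genes filled in red and list medians as black bars. The homeostatic microglia genes lie between -0.31 and 0.17, and the 3 called genes shown all belong to the list of activated microglia and macrophage genes.

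The activated list as a whole took 0.177%, 0.195% and 0.187% of the counts outside the ribosomal RNA row in dKO and 0.154%, 0.137% and 0.154% in WT, a ratio of 1.25 with and without dKO replicate 3. Within each library, the log2 ratio of the summed homeostatic genes to the summed activated genes was 1.07, 0.947 and 1.09 in dKO and 1.34, 1.46 and 1.36 in WT. All dKO values lay below all WT values, by 0.35 on average. Lyz2 holds the most counts of the activated list, and without it the difference of dKO minus WT was -0.22, with dKO values of 1.73 to 1.90 and WT values of 1.99 to 2.12. No p is given for this ratio, because the genes were chosen with earlier results known, and 3 against 3 libraries cannot go below 0.1.

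**Figure D4:**
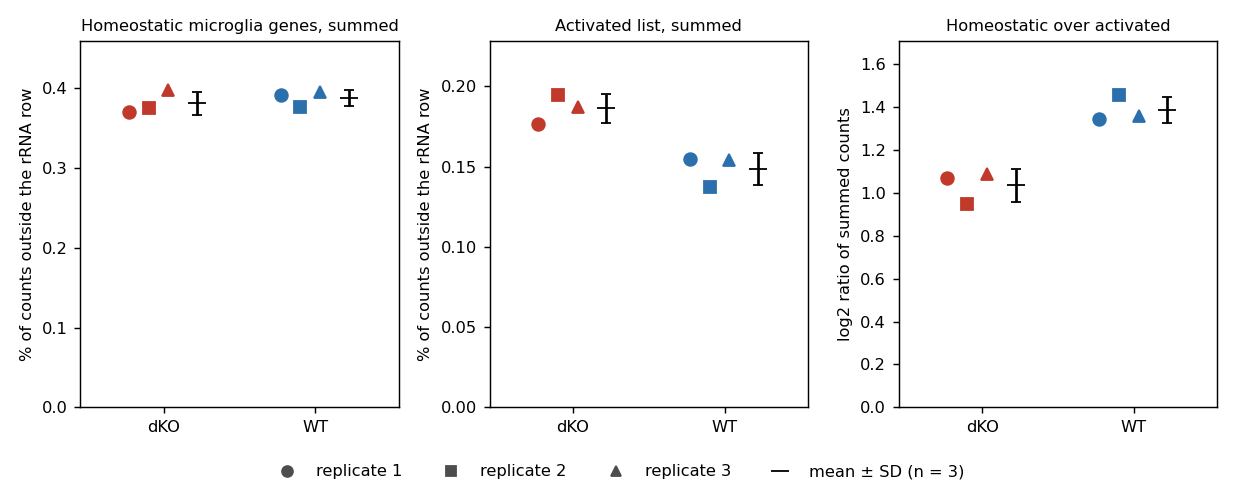
Summed counts of the homeostatic and of the activated list as percent of counts outside the ribosomal RNA row (left and middle panels) and the log2 ratio of both sums (right panel), per library, with mean and SD; all vertical axes start at 0. Homeostatic shares overlap between dKO and WT, activated shares are higher in all dKO libraries, and the ratio is lower in all dKO libraries.

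Other macrophages and blood cells can express Csf1r, Ctss, Aif1 and Cx3cr1 as well. Of 11 border macrophage genes, 3 were tested and none was called, and DESeq2 and limma-voom called 0. At an unadjusted p under 0.05, 2 of the 3 were higher, against 5.66% of all genes tested. The list took 0.0132% to 0.0166% of the counts outside the ribosomal RNA row in dKO and 0.00952% to 0.0113% in WT. Cbr2 and Cd209f had no count in any library, and Cd163, Pf4 and Folr2 had 1 or 2 counts in dKO and 0 in WT over 3 libraries each. Mrc1, the mannose receptor, was at 3.47 ± 0.626 CPM in dKO and 1.45 ± 0.287 CPM in WT (SD, n = 3 each; edgeR adjusted p = 0.0690), and Stab1 at 7.17 ± 1.48 CPM in dKO and 5.15 ± 0.483 CPM in WT (0.336).

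Of 14 monocyte and neutrophil genes, 7 were tested and none was called, and DESeq2 and limma-voom called 0. At an unadjusted p under 0.05, 1 of the 7 was lower, against 6.88% of all genes tested. The list took 0.0597% to 0.0719% in dKO and 0.0696% to 0.0751% in WT. The neutrophil genes S100a8, Ly6g and Mpo had no count in any library. Ccr2, the chemokine receptor of inflammatory monocytes, was at 12.3 ± 1.21 CPM in dKO and 15.4 ± 1.07 CPM in WT (SD, n = 3 each; edgeR adjusted p = 0.477), and Ly6c2 at 4.98 ± 0.326 CPM in dKO and 6.88 ± 1.32 CPM in WT (0.342). The share of these cells in the counts of the 9 genes was not tested.

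The microglia genes were abundant relative to the markers of the labelled cell type. RGC markers, 15 genes, took 0.0353% to 0.0379% of the counts outside the ribosomal RNA row in dKO and 0.0250% to 0.0303% in WT. The defining marker Rbpms had 8 to 30 counts a library in dKO and 5 to 11 in WT, Slc17a6 4 to 21 in dKO and 1 to 2 in WT, and Pou4f1 1 to 9 in dKO and 0 to 1 in WT. These are raw counts, not scaled for the greater depth of dKO replicate 3, so the ranges do not compare the groups. Of the 5 RGC markers tested 1, Nefl, was called higher, with 3 log2 fold changes positive and 2 negative. The 2 negative ones were not called. Isl1 was at 4.24 ± 0.940 CPM in dKO and 7.05 ± 0.810 CPM in WT (SD, n = 3 each, edgeR adjusted p = 0.138). Thy1 was at 10.3 ± 1.13 CPM in dKO and 10.7 ± 0.359 CPM in WT (0.911). Müller glia and astrocyte markers, 14 genes, took 3.40% to 3.69% in dKO and 3.31% to 3.43% in WT, and 1 of 14, Gfap, rose. The log2 ratio of the summed homeostatic genes to these glial markers was -3.26, -3.18 and -3.22 in dKO and -3.13, -3.14 and -3.07 in WT. The dKO values lay below the WT values, by 0.11 on average. Without Ctss the average difference was -0.039 and the groups overlapped. Rod markers took 0.312% to 0.387% in dKO and 0.164% to 0.184% in WT, with 7 of 9 tested called higher. Lymphocyte markers took 0.0802% to 0.0949% in dKO and 0.0895% to 0.0919% in WT, with 1 of 7 tested, Gzma, called lower (edgeR adjusted p = 0.0369). Over all genes tested, 0.734% were called higher and 1.18% lower. The Gzma call was lost with DESeq2 (adjusted p = 0.401), with no low-count filter (0.0555) and with the replicate block (0.0651). It was also lost without dKO replicate 2 (0.1002), dKO replicate 3 (0.168), WT replicate 1 (0.177) or WT replicate 2 (0.139).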

How the data were processed

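Per the labels' protocols, a stranded kit for total RNA was used on the sorted cells. The authors deposited whole-number read counts for each Ensembl gene, without normalisation. STAR 2.7.0d, DESeq2 1.22.2 and GRCm38 are named in the submitters' processing notes. Which tool counted the reads, and with which strand setting, is not given in the sources used here. Coordinates and exon lengths came from GENCODE M21 on GRCm38, upstream sequence from RefSeq.

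The whole table was filtered with filterByExpr (minimum count 10, minimum total 15), TMM-scaled (factors 0.641 to 3.43) and tested with edgeR 4.0.16 in R 4.3.3, as a two-sided test of dKO against WT without covariates. DESeq2 1.42.0 and limma-voom (limma 3.58.1) were alternatives. Each SE was taken from the quasi-likelihood F (log2 fold change over root F). The fit was tested on simulated data with a single dispersion for all genes and the same ribosomal RNA share in every library. Known changes were set only in more abundant genes, so that test does not cover sparse genes such as Sall1. The labels do not say that replicates of a group come from separate mice, so the p-values reflect spread among libraries that could be technical only. Within each group, every pair of libraries differed beyond counting noise. The chi-square per degree of freedom was 1.16 to 1.48 in WT and 1.86 to 4.19 in dKO. Each library was counted as 1 replicate.

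The 9 genes and the other lists were chosen with earlier results of these data known. Named are the targeted genes, all 9 genes, from each other list up to 4 called genes or else the 2 with the smallest p, the 2 most abundant of each list of other cell types, and the 5 genes nearest in course; genes of other cell types that no result here turns on, and some genes that are not reported here, were left unnamed. A few more genes, such as C1qa, Irf8 and the ligands, are named outside this rule for their known roles. Exact permutation tests planned for the sums are not quoted for the same reason. Figures were drawn with matplotlib 3.10.9.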

Additional observations from a re-analysis of the deposited data

How the results depend on the processing

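None of the 8 genes tested was called under any of the scalings, filters, tools and omissions of single libraries that were tried, the replicate block (0 called) and an adjusted p under 0.1 included. Library-total scaling, under which dKO replicate 3 with its low ribosomal share counts as deep as the rest, moved the median of all genes to 1.21 and turned P2ry12 (1.14), Tmem119 (0.997), Sall1 (0.870), Ctss (1.14) and Aif1 (1.01) positive; relative to that median they were at -0.075, -0.22, -0.34, -0.068 and -0.20. Among the other genes it turned Mef2a (0.790), Tgfbr1 (0.974), Ly6c2 (0.755), Ccr2 (0.991), Fn1 (1.02), Itga4 (1.097), Thy1 (1.13), Isl1 (0.560), Gzma (0.173), Jchain (1.00), Myh9 (1.13) and Myh10 (0.986) positive. The calls over all genes were then 3 in place of 162, and 52 with DESeq2.

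Leaving out single libraries gave log2 fold changes of -0.28 to 0.050 for P2ry12 (positive without WT replicate 3) and -0.0047 to 0.51 for Siglech (negative without WT replicate 2). The ranges were -0.55 (without WT replicate 1) to -0.11 (without WT replicate 2) for Sall1, -0.34 (without WT replicate 3; unadjusted p = 0.0246) to -0.11 (without WT replicate 1) for Tmem119, 0.027 (without WT replicate 2) to 0.15 (without WT replicate 1) for Csf1r, -0.14 (without WT replicate 2) to -0.034 (without WT replicate 3) for Ctss, 0.00018 (without WT replicate 1) to 0.071 (without WT replicate 2) for Cx3cr1 and -0.23 (without dKO replicate 2) to -0.12 (without dKO replicate 3) for Aif1. They were -0.082 to 0.022 for Myh9 and -0.24 to 0.088 for Myh10 (both positive without dKO replicate 3). Without WT replicate 1, 90 genes were called. The difference in the summed share, dKO minus WT, was -0.0063 percentage points; it was 0.040 as a share of the library total and 0.0052 without Ctss, and leaving out single libraries gave -0.014 to -0.0012. The ratio to the activated list kept its sign in all alternatives. It was -0.38 to -0.31 without single libraries, -0.35 with the replicate block, -0.29 without Ctss and -0.22 without Lyz2. That list was written with earlier results of these data known, and scaling cannot alter a ratio within a library. The kept sign therefore adds no support. The ratio to glial markers also kept its sign, at -0.12 to -0.085 without single libraries. Without Ctss it was only -0.039, and the groups overlapped. Same-numbered libraries did not deviate together (correlations -0.038 to -0.00064 over 2334 genes), which gives no pairing by number; the block called 158 genes over all. Depth limits Fcrls, Sall1 and Siglech most.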
